A study of Mus musculus with 24 samples.

Results

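The clustered protocadherins are cell-surface adhesion proteins encoded by 3 gene clusters, alpha, beta and gamma, which lie side by side on mouse chromosome 18. They were taken here as every protein-coding GENCODE gene whose symbol starts with Pcdha, Pcdhb or Pcdhg followed by a letter or digit, which gave 57 of 21755 protein-coding genes on chromosomes 1 to 19 and X. Of these, 12 were alpha genes, 22 beta genes, 12 gamma A genes and 6 gamma B genes. The remaining 5 were the C-type genes, Pcdhac1 and Pcdhac2 at the end of the alpha cluster and Pcdhgc3, Pcdhgc4 and Pcdhgc5 at the end of the gamma cluster. From the first to the last base of the members the clusters spanned chr18:36930184-37841873 on build mm10. The annotation holds 2 genes with the symbol Pcdha11, and both were kept. Pcdhgb8 is annotated as a polymorphic pseudogene and was therefore no member.

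Each alpha and gamma gene has its own promoter and its own large first exon, which codes for the extracellular and membrane-spanning part of the protein and is spliced to constant exons shared within its cluster, whereas each beta gene is a gene of its own without constant exons. In neurons, single cells choose a few of these promoters, in part through CTCF and cohesin, which loop promoters to distant enhancers, and the resulting mixture of surface proteins lets a neuron tell its own branches from those of its neighbours. The C-type genes are less subject to this random choice, and Pcdhgc3 is also known from non-neuronal tissues. Acetylation of lysine 9 on histone H3 (H3K9ac) marks active promoters.

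H3K9ac was profiled by ChIPmentation, an immunoprecipitation in which sequencing adapters are inserted by a transposase on the beads, in spheroids of the mouse breast cancer line 4T1 collected on day 5. The study asked whether this mark changes when cells lose CPT1a, the enzyme of the carnitine shuttle that commits fatty acids to oxidation, or KAT2a, a histone acetyltransferase, and whether acetate undoes such a change. There were 3 libraries in each of 4 groups: scramble control cells, CPT1a knockout (CPT1a KO) cells and KAT2a knockout (KAT2a KO) cells, all in medium with 75 uM palmitate, and CPT1a KO cells in medium with 5 mM acetate (CPT1a KO + acetate). The labels of this last group name only acetate, and the study describes its cultures with and without acetate as both grown with palmitate. All lines carried a doxycycline-inducible Cas9. The knockout lines received guides to 2 exons of the target gene and the scramble line a guide against EGFP, and the labels give neither the guide behind each library nor whether the cells were clones. Since the guides cut exons, a promoter peak at Cpt1a or Kat2a says nothing about the knockout. Nothing in the labels says that the 3 libraries of a group came from separate cultures, so p-values measure the spread between these libraries only.

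The lists of called peaks held 16201 to 34330 peaks on these chromosomes and gave no read counts. A calling depth, the background level in fragments that each list's fold enrichments and p-values imply, could be recovered and ran from 0.554 to 2.52. It was 2.10 ± 0.364 in scramble, 1.27 ± 0.626 in CPT1a KO, 1.34 ± 0.632 in CPT1a KO + acetate and 1.50 ± 0.423 in KAT2a KO (SD, n = 3 each), so that depth moved with the groups. A promoter was called when a peak overlapped the 1 kb on either side of an annotated transcription start site (TSS), and between 50.3% and 53.6% of all protein-coding genes were called in each library. The labelled cell type was checked against markers. All 6 epithelial markers (Krt8, Krt18, Epcam, Cdh1, Cldn4 and Krt19) had a promoter peak in all 12 libraries, and 0 of 6 neuronal, 1 of 4 fibroblast (Pdgfra), 0 of 4 leukocyte and 0 of 4 endothelial markers did. Among markers called in some libraries only were neuronal Map2, in 11, fibroblast Col1a1, in 11, and the macrophage gene Cd68, in 2 of the 3 scramble libraries and in no other.

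Most clustered protocadherin promoters carried no H3K9ac peak. Of the 57 members 49 (86.0%) were called in none of the 12 libraries, against 45.1% of all protein-coding genes, 8 (14.0%) in at least 1 library, against 54.9%, and 2 (3.51%) in all 12, against 49.5%. The 2 were Pcdhb16, one of the beta genes, and the C-type gene Pcdhgc3. Pcdhb21 was called in 11 libraries, and the other 5 members in 1 to 4 libraries. None of these peaks was shared with the promoter of another gene. The counts do not show that the uncalled promoters lacked the mark, only that it stayed below the caller's threshold at these depths. The beta genes in particular resemble each other in sequence, and how reads that align to several of them were treated is not given in the sources used here.

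**Figure D1:**
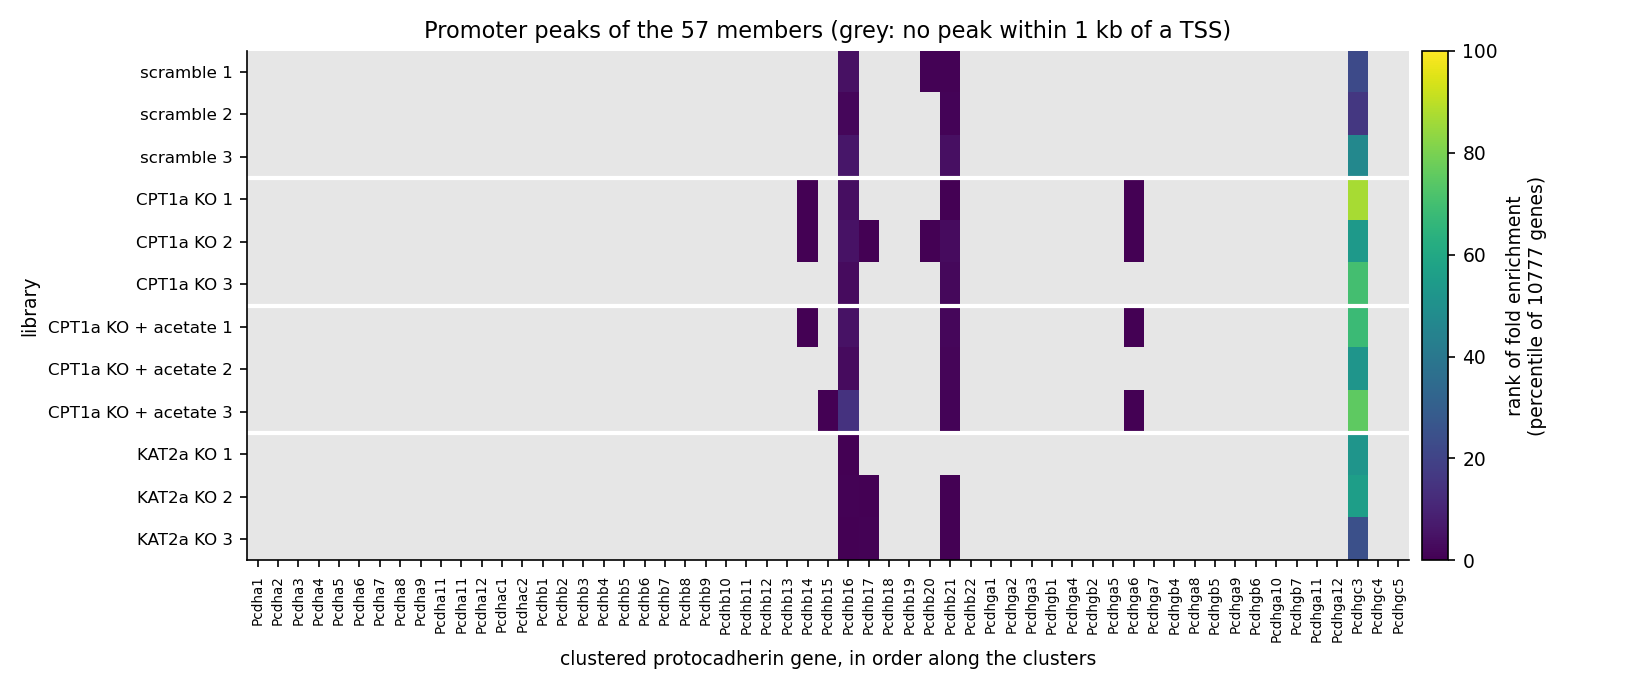
Promoter peaks of the 57 clustered protocadherins (columns, in order along the clusters) in the 12 H3K9ac libraries (rows, by group), coloured by the rank of the peak's fold enrichment as a percentile of the 10777 genes called in all 12 libraries, with grey for no peak. Pcdhb16 and Pcdhgc3 are coloured in all 12 rows and Pcdhb21 in 11, and the whole alpha cluster is grey.

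The called members were unevenly spread over the clusters. No member of the alpha cluster was called in any library, neither the 12 alpha genes nor Pcdhac1 and Pcdhac2. In the beta cluster 6 of 22 genes were called at least once, in the gamma cluster 1 of 12 gamma A genes, 0 of 6 gamma B genes and 1 of 3 C-type genes, Pcdhgc3. Pcdhgc4 and Pcdhgc5, its neighbours, had no peak in any library. Of the 48 calls made over all members and libraries 12 each fell on Pcdhb16 and Pcdhgc3, 11 on Pcdhb21 and 13 on the other 5 members.

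Each library had a called peak at only a few members, 3.51% to 12.3% of the 57, against 50.3% to 53.6% of all protein-coding genes. In scramble 4, 3 and 3 members were called in the 3 libraries, in CPT1a KO 5, 7 and 3, in CPT1a KO + acetate 5, 3 and 5, and in KAT2a KO 2, 4 and 4. The group means were 3.33 ± 0.577, 5 ± 2, 4.33 ± 1.15 and 3.33 ± 1.15 (SD, n = 3 each), and the ranges of every pair of groups overlapped. Peaks covered between 0.462% and 0.988% of the clusters' bases per library, against 0.742% to 1.76% of the genome.

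Other genes place these shares in context. Among 12 protocadherins outside the clusters, which have promoters of the ordinary kind, Pcdh1 was called in all 12 libraries and Pcdh18 in 11, and the other 10 in none. Of 11 genes that are not members but lie in or beside the clusters, 7 were called in all 12 libraries. They were Hars, Hars2 and Zmat2 before the alpha cluster, Diaph1, Hdac3 and Rell2 behind the gamma cluster, and Taf7, a gene for a subunit of the general transcription factor TFIID, which lies between the beta and gamma genes. Hars and Hars2 had identical mean ranks in every group, as had Hdac3 and Rell2, so these 7 genes stand for fewer separate peaks. Slc25a2, the mitochondrial ornithine carrier gene next to Taf7, and 3 predicted genes that overlap the clusters were called in none. Of 20 genes for proteins that act on clustered protocadherin promoters, among them Ctcf, the cohesin subunits Rad21, Smc1a and Smc3, the silencing protein Smchd1 and the DNA methyltransferases Dnmt1, Dnmt3a and Dnmt3b, 19 were called in all 12 libraries and Atf7ip in 10. Of 11 genes for proteins that protocadherins bind or signal through, such as the kinases Ptk2 and Ptk2b, subunits of the WAVE actin-regulating complex and Axin1, 9 were called in all 12, and Ret and Cyfip2 in none.

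**Figure D2:**
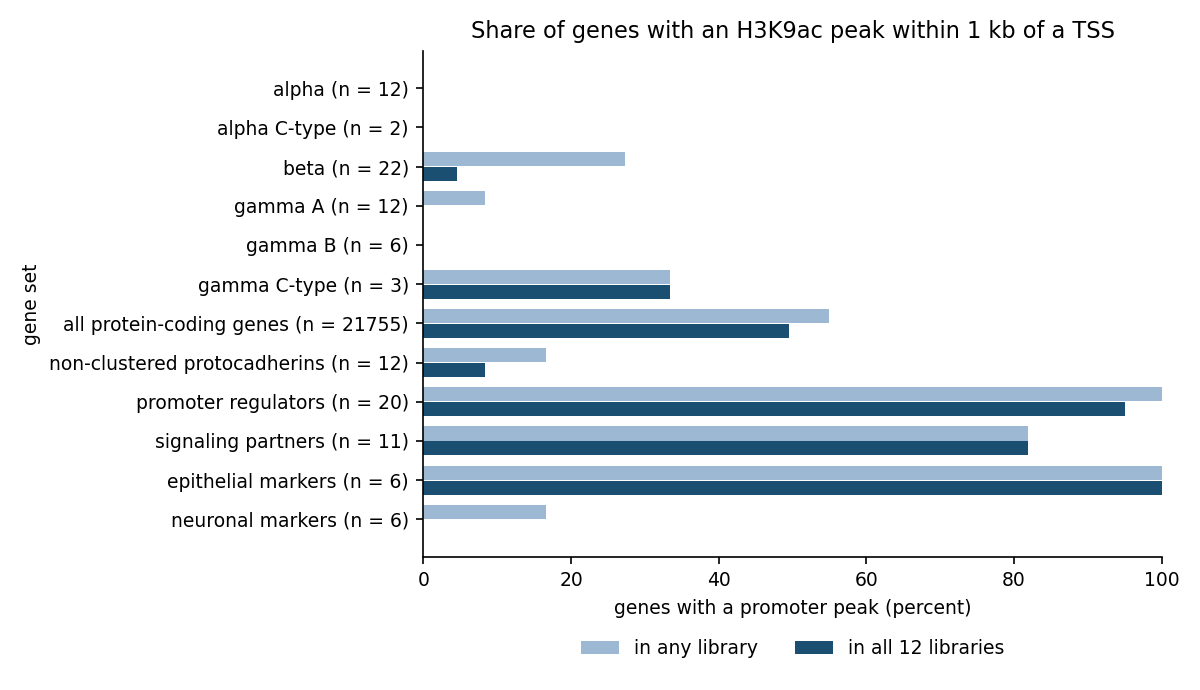
Share of genes with an H3K9ac peak within 1 kb of a TSS (horizontal axis, percent), in any library (light bars) and in all 12 libraries (dark bars), for the 6 protocadherin families, all protein-coding genes and gene lists. The alpha, alpha C-type and gamma B bars are at 0, and all 6 epithelial markers are at 100%.

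Pcdhgc3 had by far the strongest peak among the members. It lies at chr18:37806364-37841873 on the forward strand. The fold enrichment at its summit, the ratio of signal to local background that the peak caller gives, was 13.2, 11.5 and 17.99 in scramble, 39.4, 32.5 and 22.3 in CPT1a KO, 31.0, 23.5 and 31.3 in CPT1a KO + acetate, and 29.9, 32.7 and 18.9 in KAT2a KO. Those of Pcdhb16 ran from 4.90 to 15.5 and those of Pcdhb21 from 4.73 to 12.1. These ratios depend on each library's depth and were not scaled between libraries, so comparisons between libraries used ranks: the percentile of the promoter's fold enrichment among the 10777 genes called in all 12 libraries, where 0 is the weakest and 100 the strongest.

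The Pcdhgc3 peak was long and covered the gene's variable exon. Its width was 3468, 3389 and 3491 bp in scramble, 3576, 3657 and 2605 bp in CPT1a KO, 3386, 3215 and 3285 bp in CPT1a KO + acetate, and 3065, 3675 and 2793 bp in KAT2a KO. These widths stood between percentiles 63.4 and 91.6 of the same 10777 promoters. Relative to the gene's 5′ end the peak began at -582 to 56 bp and stopped at 2661 to 3536 bp. Its summit lay 1338, 385 and 1316 bp behind the 5′ end in scramble and 347 to 467 bp behind it in the other 9 libraries. The 2430 bp coding exon that is particular to Pcdhgc3 was covered over 100% of its length in every library. The 3 scramble peaks ended 3430 to 3536 bp behind the 5′ end and the other 9 at 2661 to 3314 bp, without overlap, a pattern that 42.9% of the 10777 genes showed.

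Pcdhb16 and Pcdhb21 had short peaks over the start of their single exon. Pcdhb16 lies at chr18:37477814-37483038 and Pcdhb21 at chr18:37513621-37518325, both on the forward strand. Pcdhb16's peak was 240 to 1276 bp wide and covered 9.98% to 44.4% of its 2406 bp coding sequence, with the summit 190 to 456 bp behind the 5′ end, inside that sequence. Pcdhb21's peak was 325 to 941 bp wide in its 11 libraries and covered 8.96% to 32.5% of 2322 bp. In scramble its summits lay 680 to 758 bp behind the 5′ end and in the other 8 libraries 114 to 460 bp. This separation was shown by 33.6% of the 10902 genes called in all scramble libraries and in at least 11 in all.

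**Figure D3:**
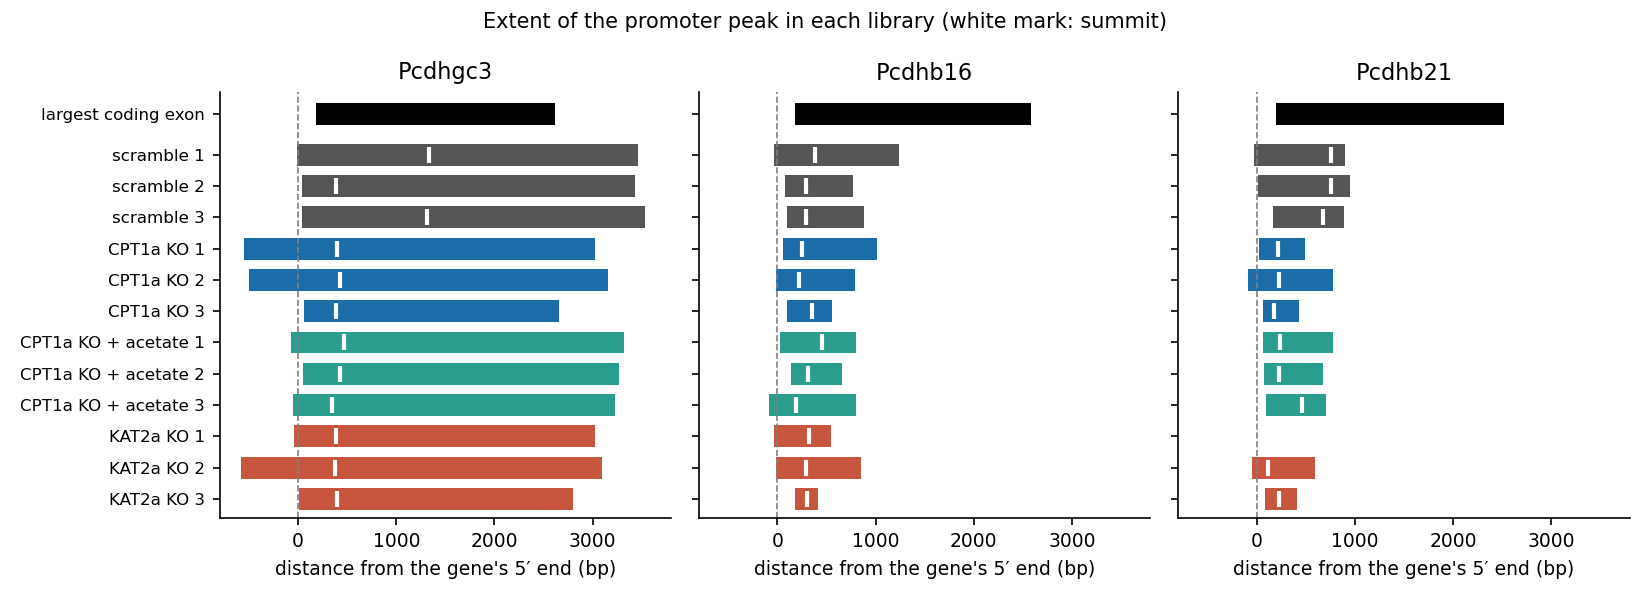
Extent of the promoter peak of Pcdhgc3, Pcdhb16 and Pcdhb21 in each library (coloured bars, by group) against the distance from the gene's 5′ end in bp, with the summit as a white mark and the largest coding exon as a black bar. The Pcdhgc3 peaks, 2605 to 3675 bp wide, span the whole exon, and those of the beta genes only its first part.

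Loss of CPT1a was compared with scramble first. Pcdhgc3 ranked higher without CPT1a. Its rank was 22.6, 16.2 and 46.8 in scramble and 86.8, 53.9 and 70.0 in CPT1a KO, so that the lowest CPT1a KO library stood above the highest scramble library. The ranked value is that at the summit, which lay farther into the gene in scramble libraries 1 and 3 than in any CPT1a KO library. The difference of the means, 70.2 ± 16.5 against 28.5 ± 16.1 (SD, n = 3 each), was 41.7 percentile points, larger than the pooled SD of 16.3. The two-sided exact permutation p was 0.1, the smallest that 3 libraries against 3 allow. Among all 10777 genes 15.5% were higher in CPT1a KO without overlap, so 1 of the 2 members testable here is no result about the family. With all lists brought to an equal calling depth the ranks of Pcdhgc3 were 20.4, 15.7 and 36.8 in scramble and 81.8, 43.9 and 68.2 in CPT1a KO, again without overlap.

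Pcdhb16 stood among the weakest called promoters in both groups. Its rank was 4.53, 1.89 and 6.06 in scramble and 3.54, 4.96 and 2.93 in CPT1a KO, with overlap and a difference of -0.356 (exact permutation p = 0.9), which turned to 15.6 points higher without overlap once the trend of rank with promoter GC content was removed. Pcdhb21 ranked at 0.705, 0.909 and 4.14 in scramble and at 0.167, 3.07 and 2.30 in CPT1a KO, again overlapping. No member's peak widths in bp separated the groups, as 42.1% of all genes' widths did. As a percentile of the library's widths, which takes out differences in width shared by all promoters, Pcdhgc3's peak was wider in CPT1a KO, at 89.9 to 91.1 against 63.4 to 82.4 in scramble, without overlap, as were the percentiles of 32.2% of all genes in one direction or the other. Pcdhb21, outside that share, had lower width percentiles in CPT1a KO, at 0.186 to 2.45 against 3.81 to 8.06 in scramble, without overlap. None of the 57 was called in all 3 libraries of one group and none of the other, which held for 0.426% of the genes called in any of the 6. At equal calling depth Pcdhb21 came to do so, since it then lost its call in all 3 scramble libraries and kept it in all 3 CPT1a KO libraries, at ranks of 0.00981, 0.520 and 1.09. That pattern was shown by 2.52% of genes at equal depth, and with lists of equal length by Pcdhb21 again and 1.78% of genes.

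Acetate left the members' ranks in CPT1a KO cells within their spread. In CPT1a KO + acetate Pcdhgc3 ranked at 68.1, 52.3 and 75.4, a mean of 65.3 ± 11.8 (SD, n = 3), a difference of -4.98 points from CPT1a KO (exact permutation p = 0.7), less than the pooled SD of 14.3. Without overlap, 5.47% of all genes ranked higher with acetate than without it and 8.69% lower. Pcdhb16 ranked at 4.96, 2.81 and 14.5, and its difference from CPT1a KO of 3.63 rested on the third library (exact permutation p = 0.6). Pcdhb21 ranked at 1.79, 1.43 and 0.858. No member's widths separated the groups (9.03% of all genes), and a call in 3 of 3 libraries against 0 of 3 was seen for no member and for 0.0342% of genes.

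Against scramble, which is the same control as above, the acetate-treated CPT1a KO cells again had the higher Pcdhgc3 ranks. The groups did not overlap and differed by 36.7 points, against a pooled SD of 14.1 (exact permutation p = 0.1, the smallest possible). Of all genes 14.9% were higher without overlap. Pcdhgc3's peak was narrower, at 3295 ± 86.0 bp against 3449 ± 53.5 bp (SD, n = 3 each), also without overlap, as were the widths of 36.9% of all genes in one direction or the other, but the separation was lost when only peaks with their summit inside the window counted. As a within-library percentile the order of the means was the opposite, 86.1 ± 5.02 against 75.3 ± 10.4 (SD, n = 3 each), with overlap. On that scale Pcdhb16 was narrower with acetate, at 2.55 to 3.01 against 3.86 to 8.50, and 29.1% of all genes separated. Pcdhb21, outside these shares, was 604 to 714 bp wide with acetate and 721 to 941 bp in scramble, without overlap. Pcdhb16's ranks overlapped with scramble, with a difference of 3.28 (exact permutation p = 0.6), which became 19.1 without overlap when the GC trend was removed. No member was called in 3 of 3 libraries against 0 of 3 (0.640% of genes), except that Pcdhb21 was so with lists of equal length, as were 1.04% of genes.

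KAT2a is itself an H3K9 acetyltransferase, and its loss was compared with the same scramble libraries. Pcdhgc3 ranked at 52.3, 56.1 and 24.6 in KAT2a KO, a mean of 44.4 ± 17.2 (SD, n = 3), and the third library fell inside the scramble range. The difference of 15.8 (exact permutation p = 0.2) was smaller than the pooled SD of 16.7. It became 35.8 without overlap with summits inside the window. With a library left out it ran from 9.65 to 25.7, without overlap when scramble library 3 or KAT2a KO library 3 was left out. Pcdhb16 ranked at 0.246, 0.710 and 0.195 in KAT2a KO, below its 3 scramble ranks with a mean difference of -3.78 points and a pooled SD of 1.50 (exact permutation p = 0.1, the smallest possible), but the difference turned to 10.3 points higher without the GC trend. In that setting ranks are given relative to genes of like GC content, and Pcdhb16 stood at -45.2, -39.4 and -43.1 in scramble and at -30.9, -31.5 and -34.4 in KAT2a KO. Without that correction 15.0% of all genes were lower in KAT2a KO without overlap. Pcdhb16's KAT2a KO ranks also lay below those of all the other 9 libraries, as those of 63 of 10777 genes did (0.585%), a split chosen after the values were seen.

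Pcdhb21 was missing from 1 KAT2a KO library, the only library of the 12 without it, and ranked at 0.315 and 0.223 in the other two. Widths in bp separated KAT2a KO from scramble for neither Pcdhgc3 nor Pcdhb16 and for 32.1% of the genes called in all 12 libraries. Pcdhb21, outside that share, was 325 and 634 bp wide in KAT2a KO and 721 to 941 bp in scramble. As a within-library percentile Pcdhb16's width was lower in KAT2a KO, at 0.0974 to 1.36 against 3.86 to 8.50, without overlap, and 31.7% of all genes separated. A call in 3 of 3 against 0 of 3 libraries occurred for no member and for 1.39% of genes. At equal calling depth Pcdhb16 kept its call in 1 of 3 KAT2a KO and 1 of 3 scramble libraries, and in all 6 CPT1a KO libraries with and without acetate.

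**Figure D4:**
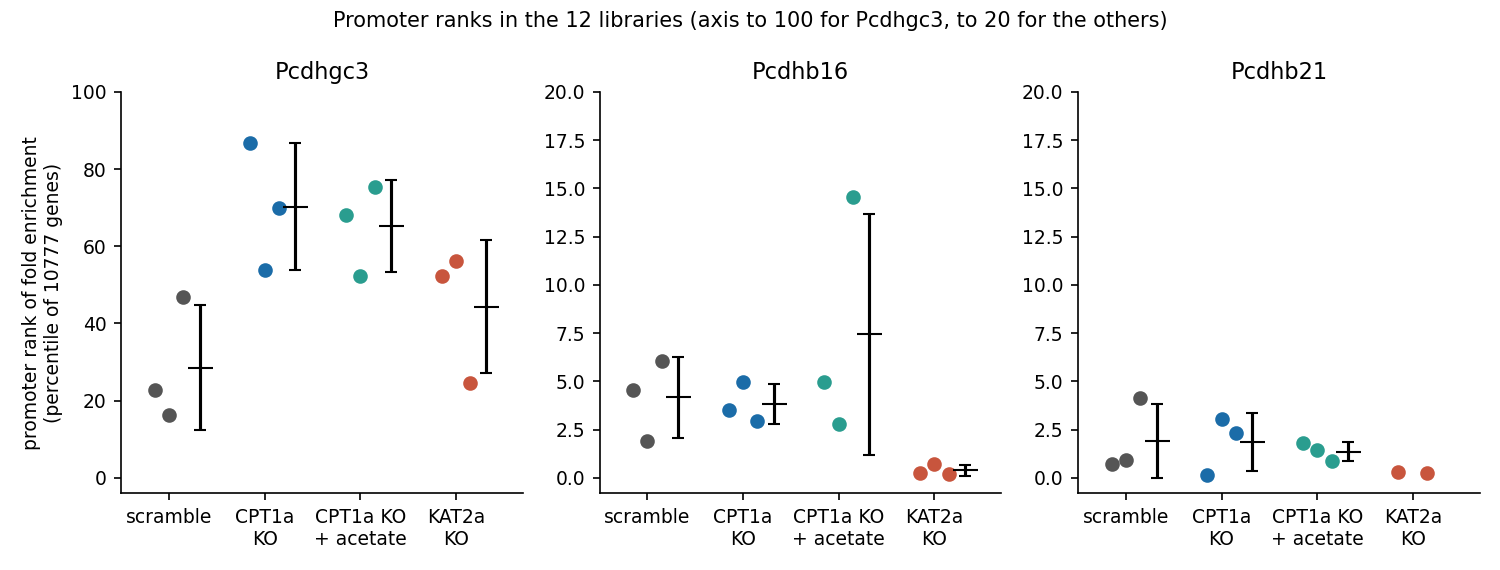
Promoter rank (vertical axis, percentile of fold enrichment among 10777 genes) of Pcdhgc3, Pcdhb16 and Pcdhb21 in the 4 groups, with a point for each library and the mean ± SD where all 3 libraries had a peak. Pcdhgc3 stands at 16.2 to 46.8 in scramble and at 52.3 to 86.8 in the CPT1a KO groups. The Pcdhb16 points of KAT2a KO lie below all others, an order that turns against scramble when the trend with GC content is removed.

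Setting the 3 scramble libraries against the other 9 is the split that can pass a threshold of 0.05 over all genes, and it pools cells of different genotype and medium. Pcdhgc3 ranked 31.4 points higher in the other 9, at 60.0 ± 17.8 (SD, n = 9) against 28.5 ± 16.1 (SD, n = 3), with 8 of the 9 above all scramble libraries. The two-sided exact permutation p over the 220 assignments was 0.0182 and 0.110 after Benjamini-Hochberg adjustment over the 10777 genes, so it did not pass. No gene did: 0 genes (0%) had an adjusted p of 0.05 or less, the smallest was 0.0538 by this exact permutation test, and 2807 genes had an unadjusted p of at most 0.05. Pcdhb16 differed by -0.286 (exact permutation p = 0.905). Neither member separated the 2 sets without overlap, while 4.51% of all genes were higher in the other 9 and 8.12% lower. Among the promoter regulators Stag2, a cohesin subunit, and Pds5a, a regulator of cohesin, were higher without overlap, by 27.5 and 34.1 points, and none was lower.

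The 5 members called now and then were weak in each case, and they are named here after their values were seen. Their 13 calls ranked at or below percentile 0.640, had peaks of 200 to 303 bp and -log10 q values of 2.77 to 11.9. Pcdhga6 was called in CPT1a KO libraries 1 and 2 and in CPT1a KO + acetate libraries 1 and 3, and in no scramble or KAT2a KO library. Pcdhb14 was called in CPT1a KO libraries 1 and 2 and in CPT1a KO + acetate library 1. Pcdhb17 was called in CPT1a KO library 2 and KAT2a KO libraries 2 and 3. Pcdhb20 was called in scramble library 1 and CPT1a KO library 2 at positions that did not overlap, and Pcdhb15 in CPT1a KO + acetate library 3 alone. No group had any of the 5 in all 3 of its libraries, so none of these patterns is read as a difference between groups. With lists of equal length, 4 members in all kept a call in any library (Pcdhb16, Pcdhb21, Pcdhga6 and Pcdhgc3), and at equal calling depth 5, with Pcdhb17. Of all protein-coding genes 53.2% were called in any library in each of these settings, against 54.9% with the lists as deposited.

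Peaks of all libraries merged into 14 regions within the clusters, of which 3, at Pcdhb16, Taf7 and Pcdhgc3, were found in all 12 libraries and 5 in a single library. Of the regions away from any protein-coding promoter, chr18:37236418-37237161 lay between the alpha and beta genes, 27777 bp from the nearest start site, that of Pcdhb1. It was called in all 3 KAT2a KO libraries, in 1 CPT1a KO and 1 CPT1a KO + acetate library and in no scramble library, with fold enrichments of 4.25 to 6.68, and is described after its values were seen. Of all merged regions in the genome with a call in KAT2a KO or scramble, 1.26% were likewise called in all 3 KAT2a KO and no scramble libraries. Another, chr18:37761600-37762210, was called in 2 CPT1a KO libraries and 1 CPT1a KO + acetate library, and one of 348 bp between the variable exons of Pcdhgc3 and Pcdhgc4 was called in 1 scramble library.

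The called members did not share a CpG-rich promoter. Active promoters of ordinary genes are often CpG-rich, and genes called in all 12 libraries had a median of 89 CpG dinucleotides within 1 kb of the 5′ end, against 23 in genes called in none. The members had a median of 47, the alpha genes of 54 and the beta genes of 28.5. Pcdhgc3 had 115, the most of all members, and of the 1062 genes with a CpG number within 5 of this 80.5% were called in all 12 libraries. Pcdhac2 came second with 102 and was called in no library, although 81.1% of the 1395 genes with a like number were called in all 12. At the other end, Pcdhb16 had 19 and Pcdhb21 17, fewer than all but 2 of the members in the case of Pcdhb16, and 13.1% and 11.5% of genes with a like number were called in all 12. Whether CpG content had a part in which members were called was not tested.

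**Figure D5:**
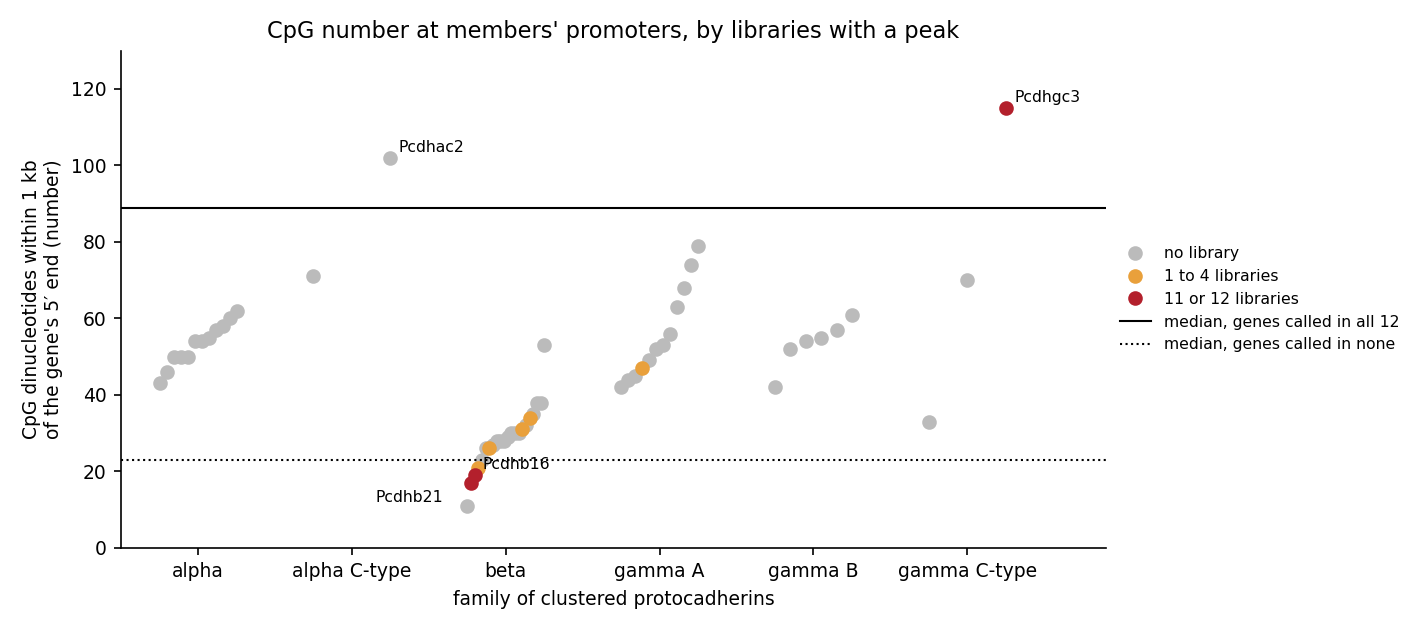
Number of CpG dinucleotides within 1 kb of the gene's 5′ end (vertical axis) for each of the 57 members by family, coloured by the number of libraries with a promoter peak, with the medians of genes called in all 12 libraries (89, solid line) and in none (23, dotted line). Pcdhgc3 is highest, Pcdhac2 is second without a peak, and Pcdhb16 and Pcdhb21 are near the bottom of the beta family.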

How the data were processed

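The 12 H3K9ac libraries were analysed from their peak lists, and the 12 input libraries were not used here. The authors called peaks in each library by itself. Per the labels their tools included Bowtie2, SAMtools, deepTools and MACS2 with builds mm10 and dm6, while the methods name BWA. The part of the inputs and of the Drosophila spike-in in calling is not given in the sources used here. The deposited columns are a fold enrichment over local background (a ratio), −log10 p-values and q-values, a score derived from the q-value, and the summit position. All are set within a library. Their smallest −log10 q was about 2, and a wider peak or a further call can come from depth alone.

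Promoters were windows of 1 kb on either side of GENCODE vM21 start sites, with at least 1 bp of overlap and the strongest peak kept. Fold enrichments were turned into rank percentiles. Groups were compared by non-overlap and by two-sided exact permutation tests of the difference of means (numpy and scipy), checked on simulated data. No sequence is printed. Members, lists and tests were chosen with earlier results of these data known. Members were named by a rule: separated calls or ranks, the C-type genes, the most often called in each cluster, and the widest and narrowest peaks. The alternatives were ranks by −log10 p, windows of 500 bp and 2 kb, the gene's 5′ end only, summits inside the window, a −log10 q of at least 5, lists of equal length, a common calling depth of 0.55, removal of the GC trend in 50 bins, merging of peaks within 500 bp, leaving out each library, and pairing by replicate number.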

Additional observations from a re-analysis of the deposited data

How the results depend on the processing

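Pcdhgc3 ranked above scramble without overlap in CPT1a KO and in CPT1a KO + acetate in all 11 other settings and all 6 leave-outs of each comparison, by 31.0 to 61.6 and by 28.5 to 56.7 points in the settings. Without the GC trend, when Pcdhb16 also separated, the count of members with separated ranks became 2 in CPT1a KO against scramble. Of all genes 30.8% then separated in one direction or the other. The count also became 2 in CPT1a KO + acetate against scramble in that setting. In KAT2a KO against scramble, where it was 1, it was 2 with summits inside the window (29.6% of all genes separated). It was 0 with lists of equal length (28.9%) and 0 at equal calling depth (33.0%), since Pcdhb16 then lost a call. It was 1 to 2 with a library left out, and 2 without scramble library 3 (37.9%) or KAT2a KO library 3 (41.5%). With a library left out it was 0 to 1 in CPT1a KO + acetate against CPT1a KO (1 without acetate library 2) and 0 to 1 in the other 9 against scramble (1 without scramble library 3 or KAT2a KO library 3). For those 9 it was 1 with summits inside the window and 1 without the GC trend.

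Without the GC trend Pcdhb16 turned to 15.6 in CPT1a KO, 10.3 in KAT2a KO and 15.0 in the other 9, each against scramble. In CPT1a KO + acetate its difference of 3.28 became 19.1. With a library left out its differences from scramble ran from -1.49 to 0.593 in CPT1a KO, from -0.278 to 5.59 in CPT1a KO + acetate (below 0 without acetate library 3) and from -1.62 to 0.663 in the other 9, and Pcdhgc3's between CPT1a KO + acetate and CPT1a KO from -13.1 to 3.31. The causes were not tested, apart from the lost calls. Members with separated widths went from 0 to 1 with peaks merged, in CPT1a KO (73.9% of all genes separated) and in KAT2a KO (60.9%). As width percentiles, a scale chosen after seeing the data, they also went to 1 in CPT1a KO (32.2%) and in KAT2a KO (31.7%). Without CPT1a KO library 3 the count was 1 against scramble (51.1%) and 1 against CPT1a KO + acetate. Without KAT2a KO library 2 it was 2 (43.1%). With a library left out members also came to be called in one group alone, 2 without CPT1a KO library 3, 1 without KAT2a KO library 1 and 1 without acetate library 2. The share of all genes called so was not counted for these leave-outs, where a group held 2 libraries.

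Replicate numbers gave no sign of pairing in the ranks. Deviations of same-numbered libraries correlated at -0.0618 to 0.0673 over 18 pairs, none over 0.1, and those of differently numbered libraries at -0.0909 to 0.103 over 36. These values cannot show whether same-numbered libraries were prepared together. With the replicate number as a block 2 members separated CPT1a KO + acetate from scramble in place of 1, as did 47.4% of all genes, and no other count of members moved. The lists hold no reads, so promoters under the calling threshold could not be ranked.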
